A study of Homo sapiens with 4 samples.

Results

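The ATF4 amino acid stress genes comprised 32 genes of the transcriptional response that cells mount when amino acids run short or protein folding in the endoplasmic reticulum is disturbed. Their names came from a list of known pathway genes, drawn up with earlier results of these data known, and all 32 were measured among the 19775 genes tested. A probe set counted for a gene where the platform annotation gave it that gene's symbol alone, and the brightest such probe set, by its mean over the 4 arrays, stood for the gene. The cells were AGS, an established human gastric adenocarcinoma line used as a model of gastric epithelium. In the LPS group, 2 arrays carried RNA of cells kept for 8 h in medium with 10 µg/ml lipopolysaccharide (LPS, the glycolipid of the bacterial outer membrane) of Helicobacter pylori. In the untreated group, 2 arrays carried RNA of cells kept for 8 h after a change to fresh medium alone. Both groups shared the line and the change of medium, and a single cell line stood for the epithelium.

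In this pathway, kinases that sense uncharged tRNA or unfolded protein phosphorylate the translation factor eIF2alpha. General protein synthesis then falls, while the mRNA of the transcription factor ATF4 is translated more. ATF4 pairs with C/EBP factors and switches on genes that import, make and charge amino acids, along with brakes on growth and translation. Because ATF4 is controlled largely at the level of translation, its target transcripts are commonly read as the output of the pathway. The comparison asks whether purified LPS moved those transcripts in gastric epithelial cells.

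ATF4 and C/EBP dimers bind a composite element, and its core letters were searched in the promoters because that element is the sequence by which the pathway reaches its targets. The letters TGATGNAA were looked for on both strands from 250 bases before to 50 bases after the annotated start, and 27 of the 32 genes had such a promoter window. They were present in 5 of those 27 windows (18.5%), against 3.67% of 27305 windows of the same length over all genes. The 5 genes were ASNS, CHAC1, FGF21, SLC3A2 and NARS1. A match describes letters only, and genes of this list are partly known through such elements. The following 3 stretches, from RefSeq promoters of GRCh38.p14 on the gene's own strand, hold the matches that lay before the start, with the match in capitals. ASNS (chr7:97872449-97872496, minus strand) has it 68 bases before the start, CHAC1 (chr15:40953242-40953289, plus strand) 209 bases before it and FGF21 (chr19:48755450-48755497, plus strand) 54 bases before it. In CHAC1 and FGF21 the letters read on the opposite strand.
ASNS: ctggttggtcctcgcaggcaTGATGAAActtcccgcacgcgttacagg
CHAC1: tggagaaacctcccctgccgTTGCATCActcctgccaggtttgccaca
FGF21: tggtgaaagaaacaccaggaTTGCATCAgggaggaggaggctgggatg

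No transcript of the pathway was called different in LPS-treated cells against untreated cells. None of the 32 genes passed the adjusted test (limma with Benjamini-Hochberg adjustment over all genes, adjusted p = 1 for each), as was the case for 0% of all genes tested. At an unadjusted p under 0.05 there were 0 of the 32 genes, against 2.83% of all genes. The differences ran from -0.15 for EIF4EBP1 to 0.25 for ATF5 on the log2 scale, which are ratios of 0.90 and 1.19. The median of the 32 differences, each LPS minus untreated, was -0.02, beside 0.02 over all genes. Of these genes 11 lay above 0 and 21 (65.6%) below it, against 43.5% of all genes below 0. The sign counts here and below were not tested. The median size of the difference was 0.06 for the 32 genes and 0.08 over all genes. The LPS arrays of the 32 genes lay a median of 0.17 apart and their untreated arrays 0.14 apart.

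The 95% intervals of the fit describe how large a difference the spread between these arrays left room for. They hold for the brightest probe set of each gene. They may not bound a difference between cultures, since the labels do not say whether the arrays came from separate ones. All 32 intervals covered 0, and 30 of them lay within 1.5-fold in either direction. The exceptions were ATF5 and NUPR1, whose upper bounds were 1.54-fold and 1.51-fold. The lowest bound, a ratio of 0.74, belonged to EIF4EBP1. These bounds refer to the deposited log2 values, which understate changes of dim probe sets. For 4 of the 32 genes (PHGDH, ALDH1L2, STC2 and VLDLR) the mean lay below the median over all genes of 7.25. SLC6A9 (means of 7.36 in LPS-treated and 7.23 in untreated cells) and FGF21 (7.64 and 7.69) lay not far from that median.

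**Figure D1:**
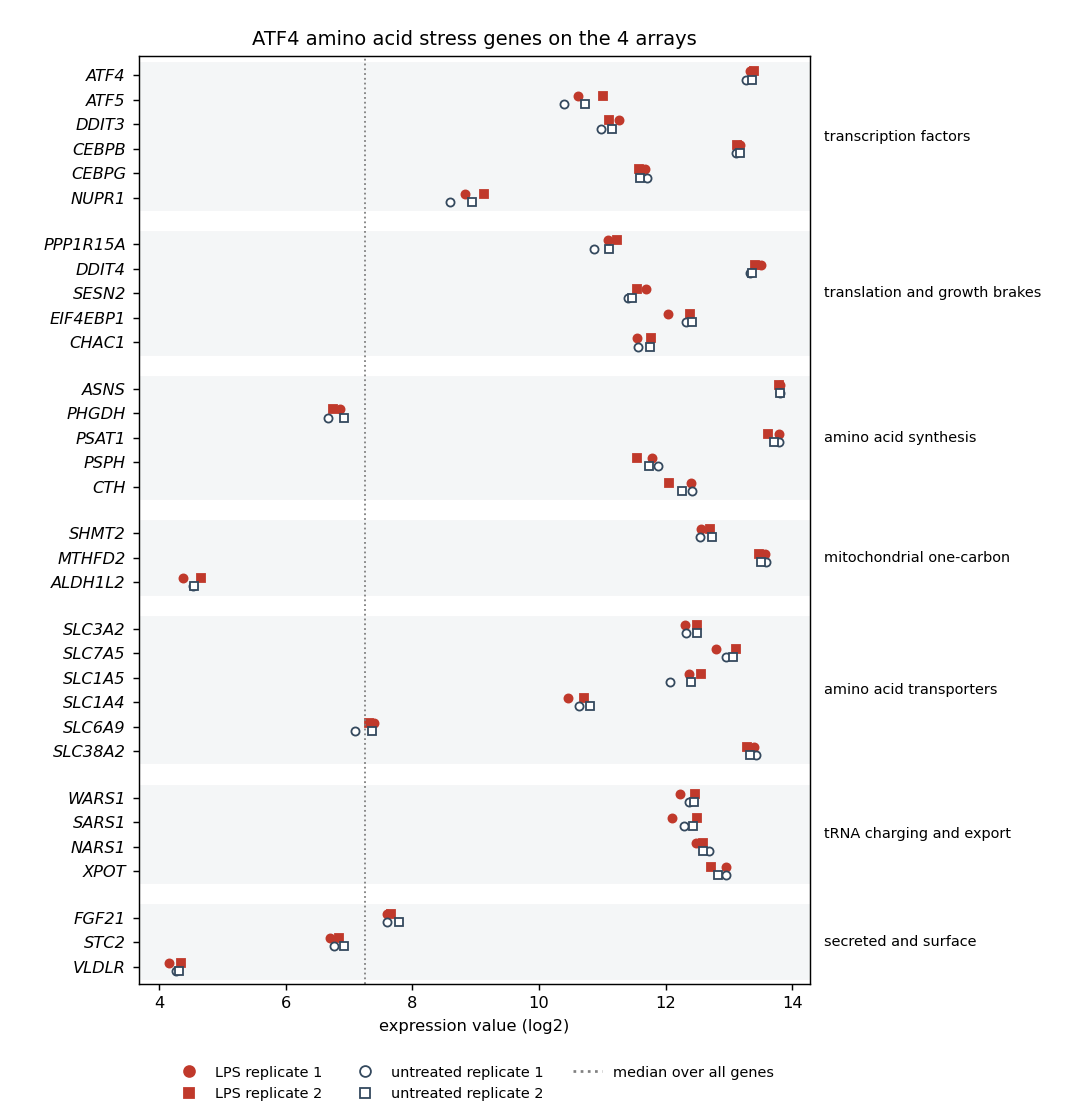
Deposited log2 expression value (horizontal axis) of each of the 32 genes, grouped by role, on the 2 LPS arrays (filled red) and the 2 untreated arrays (open). The dotted line is the median over all genes at 7.25, and positions of different genes are not comparable because each has its own probes. For 30 of the 32 genes the groups overlap.

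In 2 of the 32 genes (6.25%), SESN2 and DDIT4, both LPS arrays lay above both untreated arrays, against 17.9% of all genes. In 0 of the 32 genes did both LPS arrays lie below both untreated arrays, against 11.7% of all genes. These shares describe the list and were not tested. Further probe sets without overlap are named below for single genes. Their share over all probe sets was not counted, so they add no evidence for a difference. For a single gene, the smallest two-sided p that an exact permutation test of 2 against 2 arrays allows is 0.333.

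The transcription factors had 5 of 6 genes above 0, with a median difference of 0.09. ATF4, the factor that gives the pathway its name, was at 13.34 and 13.40 on the LPS arrays and at 13.27 and 13.37 on the untreated arrays. The arrays of the groups interleaved, and the difference was 0.06 with an interval of -0.11 to 0.22. ATF5, a related factor that ATF4 induces under stress, was at 10.61 and 11.01 on the LPS arrays and at 10.39 and 10.73 on the untreated arrays. Each LPS array lay above the untreated array of the same number, but LPS replicate 1 lay below untreated replicate 2. Its difference of 0.25 had a standard error of 0.16 (limma, adjusted p = 1). Leaving out LPS replicate 2 gave 0.05, and leaving out LPS replicate 1 gave 0.45. All 4 ATF5 probe sets lay above 0, from 0.15 to 0.25. On 2 of the 4 both LPS arrays lay above both untreated arrays, as was so for 17.9% of all genes.

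DDIT3 encodes CHOP, the factor tied to cell death under prolonged stress. It was at 11.27 and 11.10 on the LPS arrays and at 10.98 and 11.16 on the untreated arrays. The same-numbered arrays differed by 0.29 for replicate 1 and by -0.06 for replicate 2, so the direction was not shared. CEBPB and CEBPG encode C/EBP factors that pair with ATF4. CEBPB averaged 13.16 ± 0.04 in LPS-treated and 13.14 ± 0.05 in untreated cells (SD, n = 2 each). CEBPG averaged 11.63 ± 0.07 in LPS-treated and 11.65 ± 0.08 in untreated cells (SD, n = 2 each). For both factors the groups overlapped and the difference was smaller than either group's SD. NUPR1, a stress-induced chromatin protein, was at 8.84 and 9.14 on the LPS arrays and at 8.59 and 8.95 on the untreated arrays. Its difference of 0.22 had a standard error of 0.16, and the groups overlapped. It was 0.04 without untreated replicate 1 and 0.40 without untreated replicate 2.

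**Figure D2:**
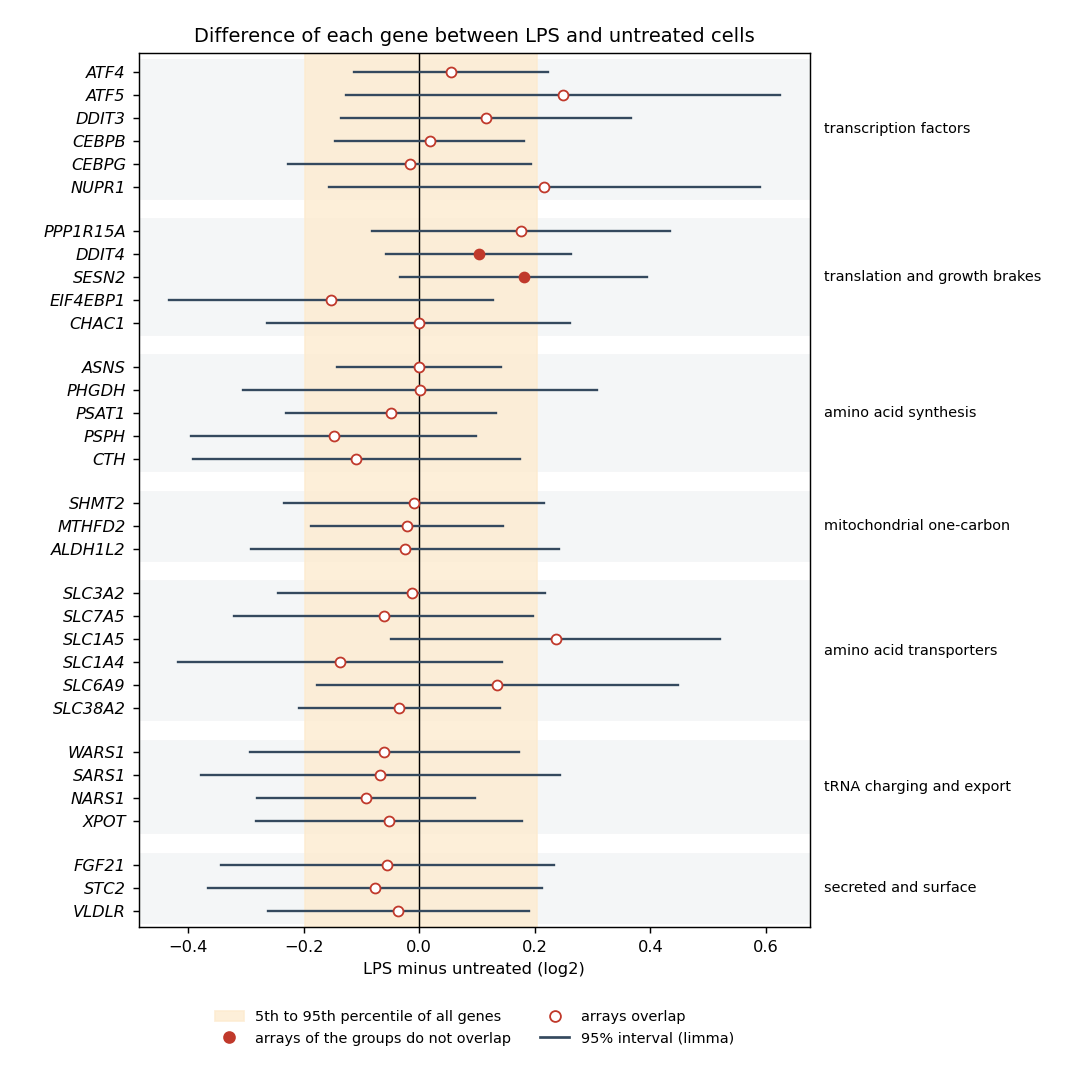
LPS minus untreated on the log2 scale for each of the 32 genes, with the 95% interval of the limma fit as a bar and the 5th to 95th percentile of all genes (-0.20 to 0.20) as a shaded band. Filled points mark the 2 genes, DDIT4 and SESN2, whose LPS arrays both lay above both untreated arrays, and every bar crosses 0.

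In the group headed brakes on translation and growth, 3 of 5 genes lay above 0. Both genes without overlap of the arrays belonged to it. The group also held PPP1R15A and CHAC1, which are not themselves such brakes. SESN2 encodes Sestrin 2, a leucine sensor that restrains the growth kinase complex mTORC1. It was at 11.69 and 11.54 on the LPS arrays and at 11.41 and 11.46 on the untreated arrays. Its difference of 0.18 (standard error 0.09), a ratio of 1.13 with an interval of 0.98 to 1.31, had the smallest p of the 32 genes (limma, unadjusted p = 0.086, adjusted p = 1). Its other probe set read 11.06 and 11.15 on the LPS arrays and 10.73 and 10.94 on the untreated arrays, also without overlap. That second probe set differed by 0.27 (limma over 41091 probe sets, unadjusted p = 0.045, adjusted p = 1). It was 1 of the 58 member probe sets, and the only one, under 0.05 unadjusted, while in the fit over genes 2.83% of all genes were. The share of all probe sets under 0.05 was not counted, so this count is no result about SESN2 or the list.

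DDIT4, also called REDD1, restrains mTORC1 through the TSC complex. It was at 13.50 and 13.41 on the LPS arrays and at 13.34 and 13.37 on the untreated arrays. LPS replicate 2 stood only 0.05 above untreated replicate 2, and the ratio was 1.07 with an interval of 0.96 to 1.20. PPP1R15A, or GADD34, directs the phosphatase that reverses eIF2alpha phosphorylation. It was at 11.10 and 11.23 on the LPS arrays and at 10.87 and 11.10 on the untreated arrays, and the groups met at 11.10. Its probe sets differed by 0.18 and 0.14.

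EIF4EBP1, the translation repressor that binds the cap-binding protein eIF4E, had the lowest difference of the 32 genes. It was at 12.04 and 12.39 on the LPS arrays and at 12.32 and 12.42 on the untreated arrays. LPS replicate 1 lay below the other arrays, which spanned 0.10. Replicate 1 differed by -0.28 and replicate 2 by -0.03. CHAC1, a glutathione-degrading enzyme and a sensitive ATF4 target, was at 11.55 and 11.77 on the LPS arrays and at 11.56 and 11.76 on the untreated arrays. The CHAC1 values followed the replicate number rather than the treatment, with a ratio of 0.999 and an interval of 0.83 to 1.20.

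The amino acid synthesis genes had 1 of 5 above 0 and a median difference of -0.05. ASNS encodes asparagine synthetase, the classical target of the pathway and the gene whose promoter match is printed first above. It read 13.80 on each of the 4 arrays, and its difference was -0.0005 with an interval of -0.14 to 0.14. It was among the brightest probe sets, with 73 genes brighter, and how far its signal could still have risen was not tested. Nor was this tested for other bright members, such as PSAT1 (means of 13.70 in LPS-treated and 13.75 in untreated cells) and MTHFD2 (13.53 and 13.55). The dim second probe set of ASNS was at 5.56 and 4.97 on the LPS arrays and at 5.41 and 4.88 on the untreated arrays. That probe set followed the replicate number, and its interval ran from -0.47 to 0.71.

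PHGDH, PSAT1 and PSPH encode the 3 successive enzymes of serine synthesis. PHGDH, the entry enzyme, was dim at 6.85 and 6.75 on the LPS arrays and at 6.67 and 6.92 on the untreated arrays. A further PHGDH probe set that the annotation shares with other genes was left out. PSAT1, the aminotransferase, was at 13.78 and 13.62 on the LPS arrays and at 13.79 and 13.71 on the untreated arrays, and the groups overlapped. PSPH, the phosphatase of the last step, was at 11.78 and 11.56 on the LPS arrays and at 11.89 and 11.74 on the untreated arrays. Its 3 probe sets all lay below 0, from -0.22 to -0.07, and the dimmest had no overlap of the groups. CTH, which makes cysteine from cystathionine, was at 12.40 and 12.06 on the LPS arrays and at 12.41 and 12.26 on the untreated arrays. Its difference was -0.11, and its other probe set differed by 0.02.

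The mitochondrial folate enzymes had 0 of 3 genes above 0 and differences of -0.03 to -0.01. SHMT2, which passes a carbon unit from serine to folate, averaged 12.63 ± 0.11 in LPS-treated and 12.64 ± 0.14 in untreated cells (SD, n = 2 each). MTHFD2, the next dehydrogenase, averaged 13.53 ± 0.07 in LPS-treated and 13.55 ± 0.05 in untreated cells (SD, n = 2 each). Its interval of -0.19 to 0.14 was among the narrowest of the 32 genes. ALDH1L2, which oxidises formyl folate, was dim at 4.38 and 4.66 on the LPS arrays and at 4.53 and 4.56 on the untreated arrays, with the untreated values between the LPS values.

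Of the amino acid transporters, 2 of 6 lay above 0. SLC3A2 and SLC7A5 encode the chains of LAT1, the exchanger that brings leucine into the cell. SLC3A2 was at 12.30 and 12.50 on the LPS arrays and at 12.33 and 12.50 on the untreated arrays. SLC7A5 was at 12.79 and 13.11 on the LPS arrays and at 12.96 and 13.07 on the untreated arrays. For both chains the untreated values lay within or next to the LPS range, and the differences were -0.01 and -0.06. SLC1A5, the glutamine carrier ASCT2, had the second highest difference of the 32 genes, at 12.37 and 12.56 on the LPS arrays and at 12.07 and 12.39 on the untreated arrays. LPS replicate 1 fell just short of untreated replicate 2, and the ratio was 1.18 with an interval of 0.97 to 1.43. The difference of 0.24 was 0.07 without untreated replicate 1 and 0.40 without untreated replicate 2.

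SLC1A4, the related carrier ASCT1, was at 10.46 and 10.71 on the LPS arrays and at 10.63 and 10.80 on the untreated arrays. Its difference was -0.14 on the brightest probe set and -0.06 to 0.05 on the other 4. SLC6A9, a glycine transporter, was at 7.40 and 7.32 on the LPS arrays and at 7.09 and 7.36 on the untreated arrays. Its difference of 0.13 was uneven, with 0.31 in replicate 1 and -0.04 in replicate 2. SLC38A2, the adaptive carrier SNAT2, averaged 13.34 ± 0.08 in LPS-treated and 13.38 ± 0.06 in untreated cells (SD, n = 2 each), and its 3 probe sets differed by -0.04 to 0.03.

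**Figure D3:**
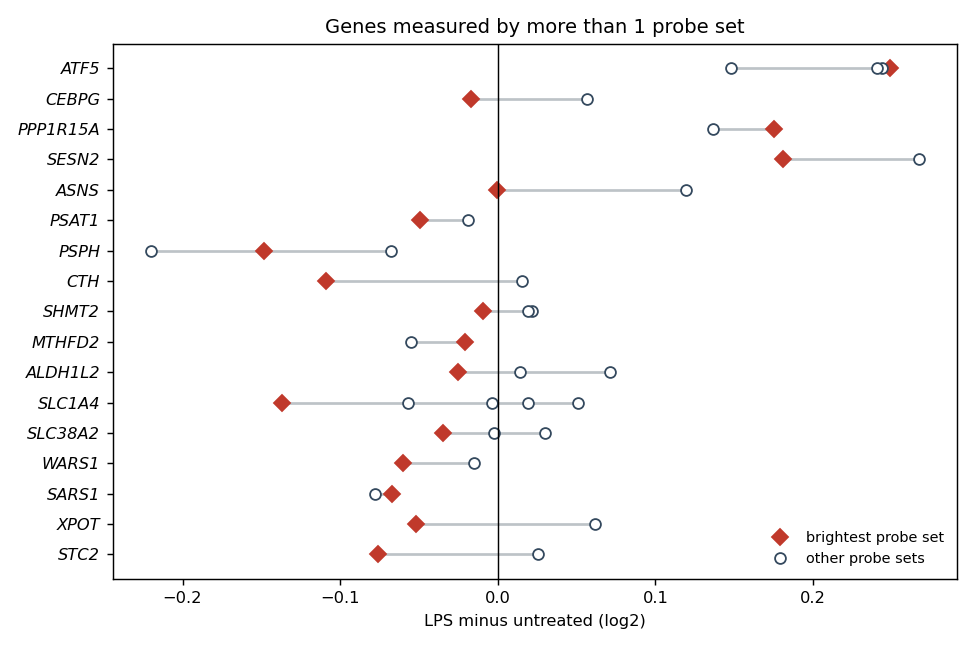
LPS minus untreated on the log2 scale for every probe set of the 17 genes measured by more than 1, with the brightest probe set as a red diamond and the others as open circles. For 8 of the 17 genes all probe sets lie on one side of 0, and for 9 they lie on both sides.

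The tRNA synthetase genes and the tRNA exporter were all slightly below 0, with differences of -0.09 to -0.05, and none was called. WARS1, SARS1 and NARS1 charge tRNA with tryptophan, serine and asparagine. WARS1 was at 12.22 and 12.47 on the LPS arrays and at 12.36 and 12.45 on the untreated arrays. SARS1 was at 12.10 and 12.50 on the LPS arrays and at 12.30 and 12.44 on the untreated arrays. In both genes LPS replicate 1 was lowest and LPS replicate 2 highest, so the untreated values lay inside the LPS range. NARS1 was at 12.49 and 12.60 on the LPS arrays and at 12.68 and 12.59 on the untreated arrays, a ratio of 0.94 with an interval of 0.82 to 1.07. XPOT, the nuclear export receptor of tRNA, averaged 12.84 ± 0.17 in LPS-treated and 12.90 ± 0.09 in untreated cells (SD, n = 2 each). Its probe sets differed by -0.05 and 0.06, and on the dimmer one, at 0.06, both LPS arrays lay above both untreated arrays.

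The secreted and surface products had 0 of 3 genes above 0. FGF21, a stress hormone, was at 7.60 and 7.67 on the LPS arrays and at 7.60 and 7.78 on the untreated arrays. STC2, the glycoprotein stanniocalcin 2, averaged 6.77 ± 0.09 in LPS-treated and 6.85 ± 0.11 in untreated cells (SD, n = 2 each), and its dimmer probe set lay at 0.03, on the other side of 0. VLDLR, a lipoprotein receptor, was at 4.16 and 4.34 on the LPS arrays and at 4.27 and 4.31 on the untreated arrays. STC2 and VLDLR were dim, and FGF21 lay not far above the median over all genes, so that the intervals of these genes may not bound a change in transcript. The 5 genes with the promoter letters TGATGNAA had differences of -0.09 for NARS1, -0.06 for FGF21, -0.01 for SLC3A2, -0.0013 for CHAC1 and -0.0005 for ASNS.

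Other genes of the pathway or related to it, from lists written down with earlier results of these data known, were not called either. Of 14 measured kinases, eIF2 and eIF2B subunits and regulators, 0 passed, 7 lay above 0 and 7 below it, and the median was -0.01. The largest test statistics there were those of EIF2B5 (0.11), EIF2B1 (0.09) and EIF2B2 (0.08), subunits of the exchange factor that phosphorylated eIF2alpha inhibits. The other, dimmer probe set of EIF2B5 differed by 0.0039. Of 14 other cytosolic tRNA synthetases 0 passed, 11 lay above 0 and the median was 0.06, whereas the 3 synthetases among the members lay below 0. EPRS1 (0.19), FARSB (0.11) and IARS1 (0.07) led that list. The other probe sets differed by -0.04 and 0.03 for EPRS1 and by -0.20 and -0.12 for FARSB. Of 10 further genes listed as mTORC1 inputs, a list that also held its kinase MTOR, 0 passed, 7 lay above 0 and the median was 0.05. MTOR was at 0.14, CASTOR1 at 0.13 and SESN1, the paralog of SESN2, at 0.12. The other probe set of CASTOR1 differed by -0.15, on the other side of 0, and that of MTOR showed no difference.

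Of 16 other amino acid transport, synthesis and folate cycle genes, 0 passed and 11 lay below 0, with a median of -0.06. PCK2, the mitochondrial enzyme that makes phosphoenolpyruvate and a known ATF4 target, was at 11.86 and 11.84 on the LPS arrays and at 11.43 and 11.69 on the untreated arrays. Its difference of 0.29 did not pass (limma, unadjusted p = 0.026, adjusted p = 1). It was 0.16 without untreated replicate 1 and 0.43 without untreated replicate 2. GLUL, glutamine synthetase, differed by -0.21, with -0.20 to 0.07 on its remaining probe sets. The difference of the arginine carrier SLC7A1 was -0.12, with -0.14 to 0.31 on its remaining probe sets. Its dimmest probe set, at 0.31, had both LPS arrays above both untreated arrays.

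Of 11 related bZIP factors 0 passed and the median was 0.02. ATF2, a factor that stress kinases phosphorylate, was at 9.64 and 9.66 on the LPS arrays and at 10.36 and 9.95 on the untreated arrays, with no overlap. Its difference of -0.51 had a standard error of 0.14 (limma, unadjusted p = 0.0089, adjusted p = 1). It was -0.30 without untreated replicate 1 and -0.71 without untreated replicate 2, and its other probe sets differed by -0.43 and -0.10. ATF7, its close relative, differed by -0.19, with -0.09 to 0.10 on its other probe sets. The dim CEBPE was at 6.57 and 6.52 on the LPS arrays and at 6.24 and 6.30 on the untreated arrays, with no overlap. Its difference of 0.28 had a standard error of 0.11 and did not pass the adjusted test (limma, unadjusted p = 0.041).

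**Figure D4:**
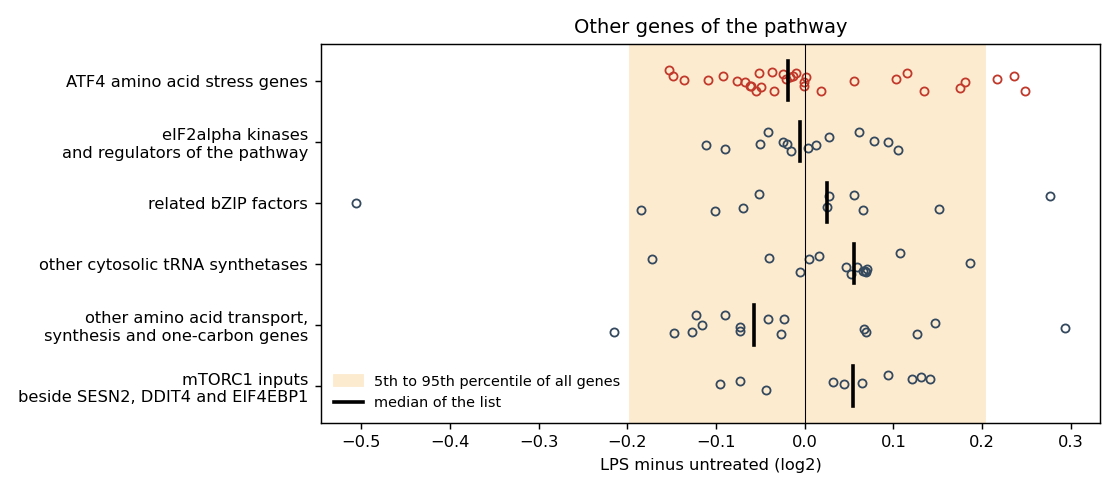
LPS minus untreated on the log2 scale for the 32 ATF4 amino acid stress genes (red) and for 5 lists of other genes (dark). The lists hold genes of the pathway or related to it, with 1 circle per gene. Each list's median is a bar, and the 5th to 95th percentile of all genes is shaded. The medians run from -0.06 to 0.06, and ATF2 at -0.51 stands farthest from 0.

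The arrays resembled each other closely, with correlations of 0.996 to 0.998 across genes, which are not independent replicates. The epithelial label was borne by KRT18 (14.40 and 14.45 on the LPS arrays, 14.37 and 14.39 on the untreated arrays) and EPCAM (13.55 and 13.43, against 13.60 and 13.52). The E-cadherin gene CDH1 was at 8.25 and 8.15 on the LPS arrays and at 8.29 and 8.37 on the untreated arrays. All 4 leukocyte, all 4 endothelial and 4 of 5 fibroblast markers lay below the median over genes. The fibroblast exception, COL1A1, was at 8.69 and 8.64 on the LPS arrays and at 8.56 and 8.63 on the untreated arrays, which is above CDH1. The leukocyte list averaged 5.63 to 5.79 on the LPS arrays and 5.80 to 5.85 on the untreated arrays. Spiked poly-A control transcripts differed by replicate number, with means of 8.15 and 7.53 on LPS arrays 1 and 2 and of 8.67 and 7.62 on untreated arrays 1 and 2. The part of that difference in the spread of the 32 genes was not tested, and 17 of the 32 had the same sign in both same-numbered comparisons. The labels do not say whether the arrays of a group came from separate cultures, although the design text speaks of 2 independent experiments, so p-values measure the spread between these arrays.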

How the data were processed

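RNA of AGS cells was hybridised to single-channel Affymetrix arrays, 2 per group. The authors deposited log2 expression values of 54675 probe sets, and all 4 data columns were used. Per the submitters' processing notes the tools were MAS5 and RMA; their roles and settings are not given in the sources used here. No detection calls were used, so a dim gene may be background, and the number of arrays limits the precision. Probe sets were named by the platform annotation: 41097 had 1 symbol, 1801 several and 11777 none, and only the first were used, without control probe sets. The values were not normalized further. LPS and untreated arrays were compared over all 19775 genes by limma (version 3.58.1, R 4.3.3; a two-sided eBayes test with an intensity trend, without covariates) and Benjamini-Hochberg adjustment at 0.05, after a test on simulated data. The members and the other lists were chosen with earlier results of these data known. All members are named, and of each other list the 3 genes with the largest moderated statistic. Promoters came from RefSeq (GRCh38.p14). Alternatives were quantile normalization, a filter at the median, averaging a gene's probe sets, a replicate block, leaving out _x_at and _s_at probe sets, dropping the intensity trend and leaving out each array. Figures were drawn with matplotlib 3.10.9.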

Additional observations from a re-analysis of the deposited data

How the results depend on the processing

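The number of arrays and the dimness of some probe sets limit these results. None of the genes tested among the 32 was called under any of the 10 settings tried, which tested all 32 except with the median filter (28) and without _x_at or _s_at probe sets (22). The same held for their 58 probe sets when each was tested on its own. Over all genes the count was 0 except without LPS replicate 2, where 16 were called (range 0 to 16 when 1 array was left out), none of them among the 32. The deviations of arrays with the same number correlated (r = 0.44 across genes), although no label ties a number to an experiment. With the replicate block 0 genes were called (limma). At an unadjusted p under 0.05 (limma) the block gave 1487 of all 19775 genes and 4 of the 32 (ATF5, SLC1A5, PPP1R15A and NUPR1). Without it there were 559 of 19775 and 0 of the 32. Whether the 32 differ from all genes in this share was not tested. The median difference was -0.0189 and ran from -0.0234 to 0.0441 when 1 array was left out, the highest value being that without LPS replicate 1. The number of genes without overlap was 2, with 4 for the mean of probe sets and 0 of 22 without _x_at or _s_at probe sets. It ran from 9 to 21 when 1 array was left out, where a lone array separates from the other group more easily. The share of all genes without overlap was not counted under these settings. These counts are therefore no result about the 32 genes.

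The sign held in each setting that was run for 11 of the 32 genes: ATF4, ATF5, DDIT3, DDIT4, NARS1, NUPR1, PPP1R15A, PSPH, SESN2, SLC1A4 and SLC1A5. ATF5, DDIT4, NUPR1 and SESN2 had no value without _x_at or _s_at probe sets, and the median filter leaves a difference as it is. For the other 21 it turned in at least 1 setting, and the cause was not tested. With quantile normalization it turned for CHAC1 (0.0029), PHGDH (-0.0168), SLC3A2 (0.0010), MTHFD2 (0.0077) and SHMT2 (0.0056). With the mean of probe sets it turned for ASNS (0.0596), CEBPG (0.0198), SHMT2 (0.0105), ALDH1L2 (0.0200) and XPOT (0.0050), and among the other genes for FARSB (-0.0695), SLC7A1 (0.0437) and CASTOR1 (-0.0090). Without _x_at or _s_at probe sets it turned for ASNS (0.1196), SHMT2 (0.0193), STC2 (0.0254), FARSB (-0.1992), SLC7A1 (0.0842), GLUL (0.0671) and CASTOR1 (-0.1486). The alternatives for genes outside the 32 were chosen after seeing the data.

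When 1 array was left out, the difference ran from -0.0022 to 0.0013 for ASNS, -0.1149 to 0.1123 for CHAC1, -0.1343 to 0.0355 for PSAT1, -0.1220 to 0.1253 for PHGDH and -0.2772 to 0.0591 for CTH. It ran from -0.1096 to 0.0838 for SLC3A2, -0.2219 to 0.0987 for SLC7A5, -0.0004 to 0.2702 for SLC6A9 and -0.0895 to 0.0194 for SLC38A2. For CEBPB it ran from -0.0142 to 0.0507, for CEBPG -0.0716 to 0.0381, for MTHFD2 -0.0713 to 0.0290, for SHMT2 -0.1079 to 0.0891 and for ALDH1L2 -0.1669 to 0.1170. For XPOT it ran from -0.1709 to 0.0670, for WARS1 -0.1836 to 0.0632, for SARS1 -0.2699 to 0.1351 and for EIF4EBP1 -0.3278 to 0.0219. For FGF21 it ran from -0.1480 to 0.0377, for STC2 -0.1562 to 0.0042, for VLDLR -0.1295 to 0.0564, for EIF2B5 -0.0003 to 0.2117 and for EPRS1 -0.0398 to 0.4115. The sign held but the size moved for ATF4 (0.0053 to 0.1056), ATF5 (0.0517 to 0.4457), DDIT3 (0.0230 to 0.2066), DDIT4 (0.0581 to 0.1476), NUPR1 (0.0381 to 0.3952), PPP1R15A (0.0610 to 0.2898), SESN2 (0.1092 to 0.2527), SLC1A5 (0.0717 to 0.3998), NARS1 (-0.1474 to -0.0361), PSPH (-0.2600 to -0.0369) and SLC1A4 (-0.2625 to -0.0107). Among genes outside the 32, PCK2 ran from 0.1599 to 0.4271, ATF2 from -0.7115 to -0.3001, GLUL from -0.3358 to -0.0935, SLC7A1 from -0.2064 to -0.0249, FARSB from 0.0148 to 0.2001, MTOR from 0.0533 to 0.2299 and CASTOR1 from 0.0745 to 0.1868.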
